A study of Homo sapiens with 16 samples.

Results

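The change with culture time in vehicle alone was measured by setting AsPC-1 cells kept in DMSO for 24 hours against AsPC-1 cells kept in DMSO for 6 hours. The arrays were chosen by their labels, 3 at each time, and these 6 of the 16 arrays of the study carried the comparison. It covered every probe set with 1 annotated gene, which gave 5250 genes from 6442 of the 9554 probe sets in the deposited table. AsPC-1 is an established human pancreatic adenocarcinoma line, and DMSO is the solvent in which the study's drug was given. Cells of all 4 groups used here were grown to 70% confluence in RPMI medium with 10% fetal calf serum before the treatment began. The groups were DMSO for 6 hours, DMSO for 24 hours, ICG-001 at 10 µM for 6 hours and ICG-001 at 10 µM for 24 hours, with 3 arrays in each. The other 4 arrays came from siRNA transfections and entered only the normalization and the shared estimate of the spread. ICG-001 is a small molecule described as an inhibitor of the interaction between beta-catenin and the coactivator CBP.

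Cells in a closed dish use up glucose and amino acids, become denser and condition their own medium. Cell contacts are known to affect junction genes, contractile genes and the cell cycle, and nutrient supply is known to affect genes of metabolism and stress. Epithelial lines can also gain or lose differentiation genes, such as those of tight junctions and mucus, as they grow. The study has no untreated group and no group at 0 hours in the drug experiment. Hours in culture, hours in DMSO, cell density, age of the medium and the harvest itself therefore cannot be told apart in what follows.

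The 6 DMSO arrays were alike in scale. Their median deposited intensities lay between 20.9 and 21.6 and their means between 132 and 137. Correlations were taken on log2(intensity + 16) of the 5250 genes after quantile normalization, with 1 probe set per gene. They were 0.98 to 0.99 within 6 hours, 0.98 within 24 hours and 0.98 between the times. The lowest value within a time (0.9807) was above the highest between times (0.9796). The deposited table is itself a selection: the lowest coefficient of variation of any probe set across the study's 16 arrays was 0.40 after rounding (0.399955). Every percentage below refers to this selection, and genes that varied little over the study are outside it. Arrays of a group are labelled as biological replicates, but separate cultures or separate days are not stated, so the p-values measure only the spread between these samples, which may be technical.

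Markers fixed for the line itself were present. KRT7, a keratin of ductal epithelium, had a mean intensity of 1458 ± 55.2 (SD, n = 3) at 6 hours and 1469 ± 189 at 24 hours. MUC1, a membrane mucin of ductal cells, stood at 966 ± 26.3 and 1240 ± 59.8, and CDH1, the epithelial cadherin, at 290 ± 14.6 and 306 ± 31.9. KRT19 was dimmer at 85.2 ± 9.46 and 93.9 ± 18.2. Of 15 such markers, 6 were among the genes analysed, and MUC1 rose while TFF1 and S100P fell. Lists for fibroblasts (10 measured), endothelial cells (6), leukocytes (4), islet cells (1) and acinar cells (5) held 0 called genes. The summed intensity of the endothelial list was 128 to 145 at 6 hours and 114 to 125 at 24 hours, and that of the leukocyte list 52.5 to 67.4 and 45.8 to 76.1. The acinar sum of 5540 to 5734 and 4987 to 5633 came mostly from PRSS2, a trypsinogen gene with near-identical copies, at 5279 ± 104 and 4972 ± 308, whereas REG1A (2.5 and 3.8) and GP2 (6.9 and 9.5) were near background. The fibroblast sum was 604 to 664 and 508 to 680, with ACTA2 at 268 ± 14 and 240.5 ± 34.9, MMP2 at 188 ± 17.5 and 174 ± 35.7, and COL1A1 at 36.3 ± 17.5 and 36.7 ± 15.4.

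Between 6 and 24 hours in DMSO, 451 of the 5250 genes passed limma's test at an adjusted p under 0.05, which is 8.59% of those tested. Of these, 245 rose (4.67%) and 206 fell (3.92%). Most changes were moderate. The median size among the called genes was 0.51 on the log2 scale, and 37 changed at least 2-fold, 27 upward and 10 downward. In the deposited scaling, without quantile normalization, the falls of CXCL8 (-0.99), FAM83A (-0.98), MPRIP (-0.93) and TBC1D31 (-0.92) were below 2-fold. Among the rises, that of LGALS2 (0.95) was too. The 3 arrays of one time lay wholly above the 3 of the other in 445 of the 451 called genes, as counted on normalized values, and this was so in 22% of all genes tested (1157). An unadjusted p under 0.05 was reached by 849 genes. Without an intensity trend in the prior spread, 335 genes were called, and small changes of bright genes named below (ABCC3, ALDH1A1, ATF4, BTG1, CCNE2, CD44, GCNT3, NDRG1, RRM1, SCD, SQLE, THBS1 and VEGFA) were not. The median change over all genes was -0.02. Fold changes are given throughout as differences of log2(intensity + 16) after quantile normalization, which understates the change of dim genes, whereas stated intensities are the deposited ones.

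**Figure D1:**
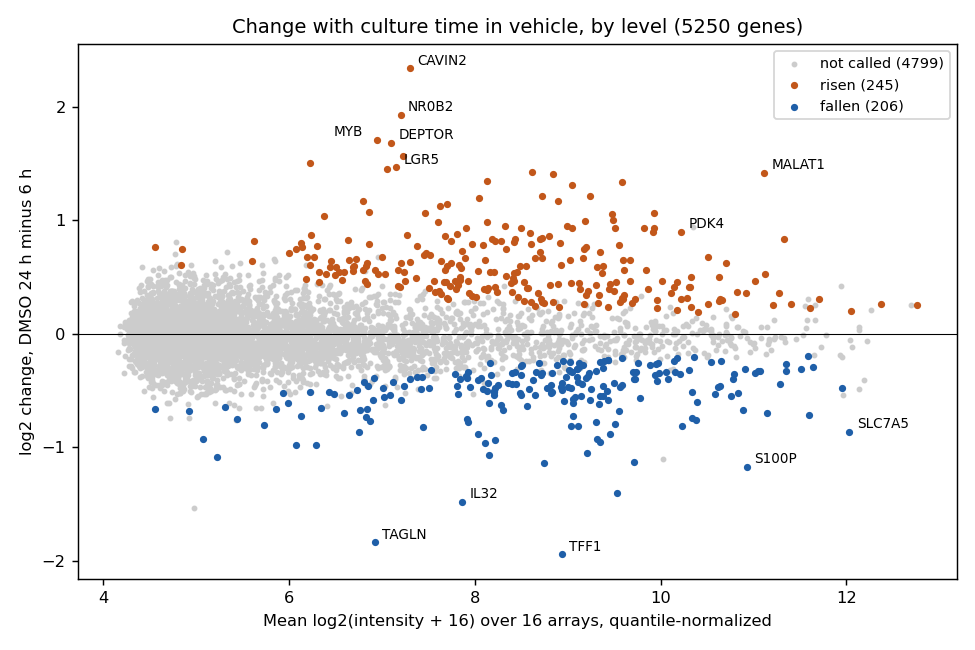
Each point is 1 of 5250 genes, with its mean log2(intensity + 16) over the 16 arrays on the x axis and its log2 change from 6 to 24 hours in DMSO on the y axis. The 245 risen genes (orange) and 206 fallen genes (blue) lie mostly in the brighter range, with CAVIN2 at the top and TFF1 at the bottom.

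Calls depended strongly on brightness. Of the 1313 brightest genes, with a median intensity of 325 on the 6 arrays, 383 were called, or 29.2%. The next 1312 genes by brightness (median 58.3) held 59 calls, the 1312 after them (median 17.2) held 7 and the 1313 dimmest (median 6.92) held 2. Dim genes were thus seldom called, and a dim gene without a call is not shown to be stable. Among 4325 protein-coding genes 224 rose and 200 fell, whereas among 757 long noncoding RNA genes 19 rose and 4 fell. The difference between those splits was not tested.

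The largest rise was that of CAVIN2, a coat protein of caveolae. Its intensities were 97.8, 102 and 83.2 at 6 hours and 536, 464 and 460 at 24 hours. Every 24-hour array was far brighter than every 6-hour array. The log2 change was 2.34 ± 0.12 (SE, adjusted p = 4.12e-10), and a second, dimmer probe set gave 1.33. NR0B2, the orphan nuclear receptor SHP, which represses genes of bile acid synthesis, stood at 113, 123 and 107 at 6 hours and 504, 392 and 423 at 24 hours. Its arrays did not overlap either, and the change was 1.93 ± 0.14 (adjusted p = 1.86e-08).

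Several regulators of growth and transcription followed. MYB, a transcription factor of proliferating progenitor cells, had intensities of 101, 117 and 100 at 6 hours and 372, 354 and 339 at 24 hours, a change of 1.71 ± 0.17. DEPTOR, an inhibitor of the mTOR kinase, went from 59.7, 73.1 and 58.9 to 211, 228 and 259, a change of 1.69 ± 0.12. RGCC, named as a regulator of the cell cycle, went from 104, 120 and 104 to 357, 316 and 329, a change of 1.57 ± 0.10. In all 3 genes the times were clearly apart, with the lowest 24-hour array above the highest 6-hour array by a wide margin. The adjusted p-values from limma were 1.01e-06, 1.3e-08 and 4.4e-09. A second probe set of RGCC (65.8 to 79.2, change 0.22, adjusted p = 0.884) and a dim one of MYB (6.32 to 10.2, change 0.22) did not pass.

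The remaining large rises were mixed in function. CALHM3, a subunit of a calcium-regulated channel, rose by 1.46 ± 0.12 from a mean of 77.5 to 232. APOBEC1, the cytidine deaminase that edits apolipoprotein B mRNA, went from 218, 260 and 245 to 663, 664 and 639, a change of 1.43 ± 0.09. BCO2, a carotenoid-cleaving enzyme, had 251, 260 and 241 at 6 hours and 634, 604 and 679 at 24 hours, a change of 1.34 ± 0.09. None of these 3 overlapped between the times. SSTR5-AS1, a long noncoding RNA named as antisense to the somatostatin receptor gene SSTR5, went from 364, 392 and 348 to 1039, 939 and 902, a change of 1.41 ± 0.10.

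MALAT1, an abundant nuclear long noncoding RNA, was the least secure of the largest rises. Its intensities were 2033, 1587 and 459 at 6 hours and 3820, 2521 and 3026 at 24 hours, so replicate 3 at 6 hours stood far below the other two. The change was 1.42 ± 0.41 (adjusted p = 0.0376). Without that array it was 0.74, and the call was also lost without each of the 24-hour arrays in turn (adjusted p = 0.0636 to 0.207 over those 4 fits). The other MALAT1 probe sets gave -0.28, -0.45 and 1.43.

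**Figure D2:**
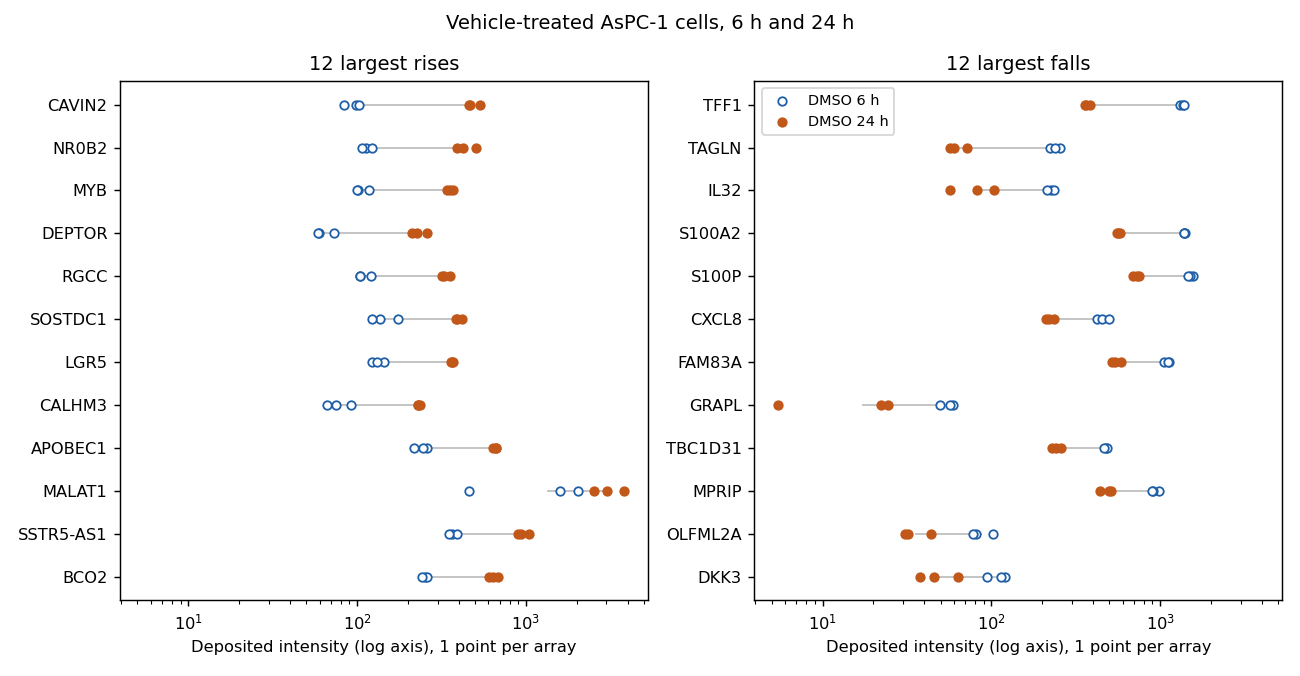
Deposited intensity on a log axis, 1 point per array, for the 12 largest rises (left) and 12 largest falls (right) by the rule for named genes, with a grey line joining the means of the 3 arrays at each time. Open blue points are DMSO at 6 hours and filled orange points DMSO at 24 hours; MALAT1 has 1 array at 6 hours far below the rest, at 459.

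The largest fall was that of TFF1, a secreted trefoil peptide of mucus. It had intensities of 1312, 1368 and 1378 at 6 hours and 361, 366 and 385 at 24 hours. The 3 arrays of each time lay within a narrow band. The log2 change was -1.94 ± 0.12 (adjusted p = 1.95e-09). TAGLN, the actin-binding protein transgelin, went from 223, 256 and 240 to 57.1, 71.2 and 60.4. Its change was -1.83 ± 0.12 and that of its second probe set -1.61, with both called.

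The calcium-binding S100 proteins S100A2 and S100P were among the brighter genes that fell. S100A2 stood at 1404, 1393 and 1376 at 6 hours and 560, 579 and 557 at 24 hours, a change of -1.40 ± 0.09. S100P stood at 1569, 1496 and 1456 and then at 727, 686 and 753, a change of -1.17 ± 0.06. Neither overlapped between the times, and the adjusted p-values were 1.95e-09 and 6.52e-10. FAM83A, which is linked to EGFR and RAS signalling, went from 1047, 1128 and 1106 to 519, 537 and 582, a change of -1.13 ± 0.13.

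MPRIP, which binds myosin phosphatase and RhoA, went from 985, 910.5 and 897 to 442, 508 and 495, a change of -1.05 ± 0.08. A dim second probe set of MPRIP (12.1 to 15.5) gave 0.18 and was not called. TBC1D31, a centrosomal protein, went from 476, 481 and 462 to 227, 243 and 257, a change of -1.06 ± 0.08. OLFML2A, an extracellular matrix protein, and DKK3, a secreted protein of the Dickkopf family, fell from lower levels. Their changes were -0.98 ± 0.17 each, from means of 87.1 to 35.7 and 110 to 48.9, and the 3 dimmer probe sets of DKK3 (-0.40, -0.15 and 0.08) were not called. GRAPL, which has the close copy GRAP, passed narrowly, with 59.4, 49.6 and 57.2 at 6 hours and 5.48, 22.1 and 24.3 at 24 hours. Its change of -1.09 ± 0.33 had an adjusted p of 0.0481 and missed the threshold in each of the 6 fits that left out 1 DMSO array (-0.81 to -1.24, adjusted p = 0.0525 to 0.242).

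Counts of list members from here on are descriptions, to be read beside the 4.67% of all genes that rose, the 3.92% that fell and the 29.2% called among the 1313 brightest. Of 19 measured genes of tight junctions, other junctions and epithelial keratins, 6 rose and 1 fell, and the list median was 0.07 against -0.02 over all genes. The 7 called members had mean intensities of 236 or more at both times. CLDN3, a claudin of the tight junction, had intensities of 534, 583 and 541 at 6 hours and 1371, 1292 and 1409 at 24 hours. The arrays were far apart, the change was 1.34 ± 0.10 (adjusted p = 2.1e-08), and a second probe set gave 1.25. TJP3, a scaffold protein beneath the junction, went from 399, 414 and 364 to 891, 702 and 726, a change of 0.95 ± 0.08. OCLN, the junction protein occludin, rose by 0.65 ± 0.08 from a mean of 567 to 898.5, and the claudin CLDN7 by 0.36 ± 0.05.

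KRT23, a type I keratin, went from 570, 647 and 629 to 1259, 1094 and 1178, a change of 0.94 ± 0.09. PPL, the plakin periplakin, rose by 0.27 ± 0.07, and this call was lost without replicate 1 at 6 hours (0.24, adjusted p = 0.0852) and without replicate 3 at 24 hours (0.21, adjusted p = 0.0926). MARVELD2, the junction protein tricellulin, fell by 0.44 ± 0.11, a call that was lost without replicate 1 at 6 hours (-0.37, adjusted p = 0.0731). CDH1 was not called (0.07 ± 0.11).

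Genes of mucus and gastrointestinal epithelium moved both ways, with 6 of 28 measured members risen and 2 fallen and a list median of 0.10. FOXA1, a pioneer transcription factor of endoderm, had 253, 260 and 272 at 6 hours and 642, 563 and 609.5 at 24 hours, a change of 1.19 ± 0.10. LGALS2, a galectin, went from 688, 702 and 693 to 1511, 1260 and 1317, a change of 1.01 ± 0.08. PSCA, a surface antigen of stomach and prostate, went from 97.5, 116 and 104 to 174, 169 and 191, a change of 0.69 ± 0.13. All 3 genes had non-overlapping arrays.

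TM4SF4, a tetraspan membrane protein, rose by 0.42 ± 0.08, MUC1 by 0.31 ± 0.08 and GCNT3, which makes the core branches of mucin glycans, by 0.20 ± 0.04. The MUC1 call was lost without replicate 2 or 3 at 6 hours or replicate 3 at 24 hours (0.25 to 0.33 over the 6 fits, adjusted p at most 0.0965). The members that fell were both trefoil peptides, TFF1 as given above and TFF2, from 2459 ± 25.8 to 1702 ± 30.3. The TFF2 change of -0.52 ± 0.15 had an adjusted p of 0.0436 and missed the threshold in each of the 6 fits that left out 1 DMSO array (-0.51 to -0.53, adjusted p = 0.0989 to 0.126). The TFF2 call was kept with the 6 DMSO arrays alone and lost without an intensity trend (adjusted p = 0.153).

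**Figure D3:**
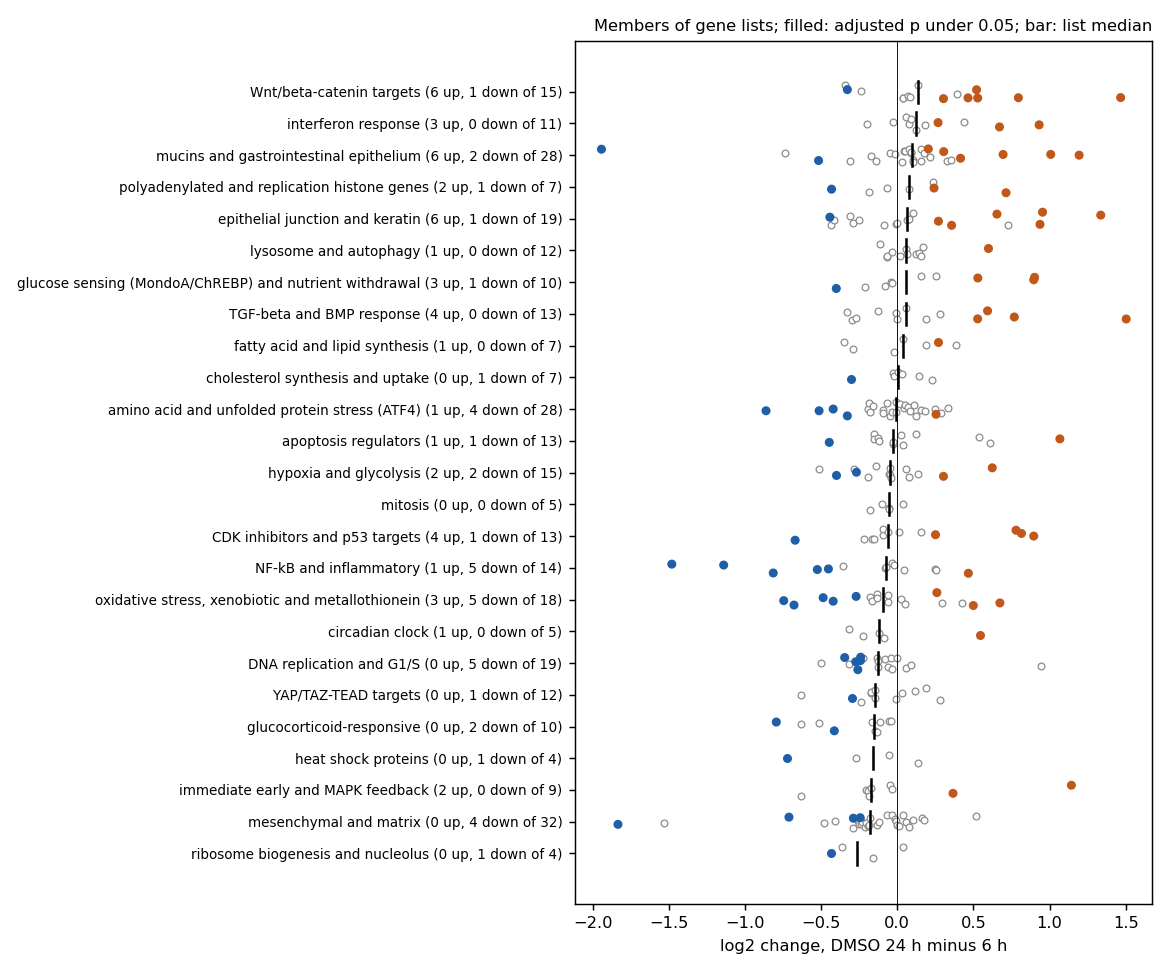
Each row is a gene list and each point a measured member, placed by its log2 change from 6 to 24 hours in DMSO, with filled points for genes called at an adjusted p under 0.05 (orange risen, blue fallen) and a black bar at the list median. Rows are ordered by median, from Wnt target genes with 6 of 15 risen at the top to ribosome biogenesis with 1 of 4 fallen at the bottom; some genes stand in more than 1 list.

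Of 15 measured genes known as Wnt and beta-catenin targets, 6 rose and 1 fell, beside 4.67% and 3.92% over all genes, and the list median was 0.14. LGR5, an R-spondin receptor that marks intestinal stem cells, had intensities of 123, 144 and 130 at 6 hours and 365, 359 and 369 at 24 hours. The arrays of the times were far apart and the change was 1.47 ± 0.12 (adjusted p = 4.92e-08), although a second LGR5 probe set, from 78.1 to 94.4, gave 0.20 and was not called. SOX4, a transcription factor of progenitor cells, went from 376, 416 and 428 to 768, 690 and 702, a change of 0.80 ± 0.09, while its dimmer probe set gave 0.30 and was not called.

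BMP4, a ligand that is also counted among TGF-beta and BMP genes, rose by 0.53 ± 0.10 from 2839 ± 50.3 to 4286 ± 130. RNF43, which clears Wnt receptors from the cell surface, rose by 0.46 ± 0.10, and VEGFA, the endothelial growth factor, by 0.30 ± 0.06. The 2 dimmer VEGFA probe sets gave 0.11 and -0.05 and were not called. TNFRSF19, a receptor of the TNF family, rose by 0.52 ± 0.16 (adjusted p = 0.0491) and missed the threshold in each of the 6 fits without 1 DMSO array (0.47 to 0.58, adjusted p = 0.0681 to 0.172). CD44, a hyaluronan receptor, fell by 0.33 ± 0.07. CCND2, a D-type cyclin, was not called (-0.03 ± 0.18).

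In the TGF-beta and BMP list 4 of 13 measured genes rose and 0 fell, with a median of 0.06. SOSTDC1, which is secreted and blocks BMP and Wnt ligands, had 136, 175 and 123 at 6 hours and 420, 385 and 392 at 24 hours. Those groups did not overlap and the change was 1.5 ± 0.20 (adjusted p = 3.04e-05). TGIF1, a corepressor of SMAD-driven transcription, went from 80.3, 62.9 and 73.6 to 124, 124 and 108, a change of 0.59 ± 0.12. FST, which binds activin, was near background with 2.6, 1.99 and 3.36 against 16.7, 19.9 and 13.8. Its change of 0.77 ± 0.23 (adjusted p = 0.0407) missed the threshold in each of the 6 fits without 1 DMSO array (0.70 to 0.83, adjusted p = 0.0645 to 0.144).

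Of 14 measured inflammatory genes that NF-kB is known to drive, 5 fell, 1 rose and 8 were not called, with a median of -0.08. IL32, a cytokine, had intensities of 225, 236 and 214 at 6 hours and 57.0, 82.0 and 104 at 24 hours, a change of -1.48 ± 0.13 (adjusted p = 2.21e-07). CXCL8, the neutrophil attractant interleukin-8, went from 422, 453 and 495 to 234, 219 and 211, a change of -1.14 ± 0.09. In both genes the lowest 6-hour array was well above the highest 24-hour array.

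CXCL2, a related chemokine, went from 356, 398 and 361 to 297, 203 and 182, a change of -0.81 ± 0.13, whereas a dim second probe set (12.2 to 19.8) gave 0.33 and was not called. CXCL3 fell by 0.52 ± 0.10 from 174 ± 11.7 to 124 ± 16.3. CCL20, which attracts lymphocytes and dendritic cells, fell by 0.45 ± 0.06 from 524 ± 18.5 to 389 ± 8.02. The 4 chemokines that fell thus changed by less than IL32, which carried the largest fall of the list. TNFSF15, a TNF family ligand, rose by 0.47 ± 0.05 from 1754 ± 14 to 2434 ± 84.8. The summed intensity of the 14 genes was 4101 to 4221 at 6 hours and 4110 to 4304 at 24 hours.

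Promoter sequences were looked at for the named genes, since AP-1 factors are known to bind the CXCL8 promoter. RefSeq promoters (GRCh38.p14) were at hand for 74 of the 100 named genes, and 250 bases before the start were searched for the AP-1 motif TGACTCA on both strands. It was found in 3 of 29 fallen and 2 of 40 risen named genes with a promoter. One of the 3 fallen genes, HSPA6, with matches beginning at -244 and -139, is not shown. Shown are the bases from -150 to -51 of 2 fallen genes (CXCL8 and LAMB3) and 2 risen genes (CALHM3 and APOBEC1), 5′ to 3′ on the strand of the gene, with the match in capitals, TGACTCA or its reverse complement TGAGTCA. The windows are chr4:73740419-73740518 (plus strand), chr1:209651425-209651524 (minus), chr10:103479291-103479390 (minus) and chr12:7665959-7666058 (minus).
CXCL8: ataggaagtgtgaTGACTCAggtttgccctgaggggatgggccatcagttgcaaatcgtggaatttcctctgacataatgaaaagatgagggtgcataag
LAMB3: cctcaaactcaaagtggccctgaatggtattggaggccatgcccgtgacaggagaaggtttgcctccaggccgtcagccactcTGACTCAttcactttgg
CALHM3: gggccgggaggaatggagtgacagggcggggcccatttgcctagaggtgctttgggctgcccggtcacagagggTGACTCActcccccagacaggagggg
APOBEC1: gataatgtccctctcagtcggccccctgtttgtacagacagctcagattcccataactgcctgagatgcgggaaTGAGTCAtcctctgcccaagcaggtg
The match began at -137 in CXCL8, -67 in LAMB3 and -76 in CALHM3 and APOBEC1, counted from the gene's start. Over whole groups, 5.1% of fallen genes and 4.15% of risen genes with a promoter held the motif, against 4.14% of all genes tested and 4.38% of the 27305 promoters in the table. These shares lie close together, and a match is only a match of letters. For the 6 other motifs, also searched on both strands, shares are of risen, fallen and all tested genes with a promoter, and none was tested. The TCF/LEF core CTTTGA was in 10.4%, 9.55% and 10.8%, and the core TGATGNA, shared by ATF4 sites, in 3.63%, 3.82% and 7.59%. The core GCGTG, shared by aryl hydrocarbon receptor and hypoxia elements, was in 37.3%, 42.7% and 35.2%, and the E-box CACGTG in 8.29%, 7.01% and 6.53%. The sterol element core CACCCCA was in 8.81%, 8.28% and 6.75%, and the E2F motif TTTGGCG in 0.518%, 1.27% and 1.92%.

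Contractile and matrix genes fell where they changed, with 0 of 32 measured members risen, 4 fallen and a median of -0.18. Beside TAGLN, LAMB3, a chain of the basement membrane protein laminin 332, had intensities of 2941, 2899 and 2878 at 6 hours and 1688, 1753 and 1924 at 24 hours. These did not overlap and the change was -0.71 ± 0.09 (adjusted p = 1.76e-05). THBS1, the matrix protein thrombospondin 1, fell by 0.24 ± 0.05 from 1988 ± 80.4 to 1630 ± 36.3, and a second probe set gave -0.46. TPM2, an actin-binding tropomyosin, had deposited intensities that overlapped between the times, with 872, 787 and 846 against 812.5, 711 and 670.5, while its normalized values did not. Its call (-0.29 ± 0.07, adjusted p = 0.0113) was lost in the authors' scaling (-0.19, adjusted p = 0.166) and without replicate 1 or 3 at 6 hours or replicate 3 at 24 hours (adjusted p = 0.0537 to 0.0545).

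In the deposited scaling 3 of the 32 matrix genes fell. The fibroblast markers given above, 0 of 10 of which were called, overlap this list in kind. Of 12 measured YAP and TEAD target genes, which respond to cell density and tension, only AJUBA, a scaffold at cell junctions, was called, with a fall of 0.29 ± 0.05 from 2744 ± 85.5 to 2292 ± 35.6. Its 2 other probe sets fell as well, by 0.32 and 0.60. The median of that list was -0.14.

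Of 19 measured genes of DNA replication and G1/S, 5 fell and 0 rose, with a median of -0.13, beside 3.92% fallen over all genes. CCNE2, a cyclin E, went from 2133, 2118 and 2210 to 1779, 1821 and 1776, a change of -0.24 ± 0.05 (adjusted p = 0.00465), and a second probe set gave -0.47. GINS4, a subunit of the replicative helicase complex, went from 671, 664 and 657 to 535.5, 541 and 558, a change of -0.35 ± 0.07. RRM1, a subunit of ribonucleotide reductase, fell by 0.24 ± 0.06.

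The calls of GINS3 (-0.27 ± 0.07) and of ORC1 (-0.26 ± 0.08), an origin recognition subunit, were less secure. In the authors' scaling they were -0.21 and -0.22 and were not called, and RRM1 was lost there too, which left 2 of 19. GINS3 also lost its call in 4 and ORC1 in 5 of the 6 fits without 1 DMSO array, namely in all but those without 24-hour replicate 3 and, for GINS3, 6-hour replicate 1 (adjusted p = 0.0751 to 0.0945 and 0.0796 to 0.224). Of 52 listed mitotic genes only 5 were measured, and 0 of these were called. One of them, BIRC5, the mitotic protein survivin, stood at 2226, 2232 and 2222 at 6 hours and at 2361, 2193 and 2361 at 24 hours, a change of 0.03 ± 0.05. The summed intensity of the 5 was 3485 to 3694 at 6 hours and 3471 to 3875 at 24 hours.

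Inhibitors of the cell cycle and p53 target genes split. CDKN1A, the CDK inhibitor p21, had 1605, 1718 and 1762 at 6 hours and 1098, 1106 and 1219 at 24 hours, a fall of 0.67 ± 0.08 (adjusted p = 1.45e-05). CDKN2B, the CDK4 and CDK6 inhibitor p15, went the other way, from 416, 441 and 453 to 807, 721 and 757, a change of 0.78 ± 0.10. Neither gene overlapped between the times. A dim second probe set of CDKN2B (21 to 23.7) gave 0.08 and was not called.

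CCNG2, a cyclin linked to growth arrest, went from 607, 635 and 620 to 1229, 1169 and 1058, a change of 0.90 ± 0.09, and its 3 other probe sets gave 0.77, 0.98 and 0.83, each called. GDF15, a secreted stress cytokine, went from 84.4, 75.0 and 73.7 to 145, 163 and 135, a change of 0.82 ± 0.08. BTG1, an antiproliferative protein, rose by 0.25 ± 0.05. In all, 4 of 13 measured members of this list rose and 1 fell, with a median of -0.06.

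Of 10 measured genes of glucose and nutrient supply 3 rose and 1 fell, with a median of 0.06. PDK4, a kinase that holds back pyruvate oxidation, had 1023, 1057 and 1095 at 6 hours and 1991, 2094 and 1933 at 24 hours. The groups were far apart, the change was 0.90 ± 0.06 (adjusted p = 1.95e-09), and its dimmer probe sets gave 0.70 and 0.65, both called. CCNG2, given above, is also in this list.

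The related kinase PDK2 rose by 0.53 ± 0.14 from a mean of 80.3 to 126, and the call was lost without replicate 1 or 2 at 6 hours or replicate 3 at 24 hours (0.40 to 0.65 over the 6 fits, adjusted p = 0.0792 to 0.128 where lost). G6PC3, a glucose-6-phosphatase, fell by 0.40 ± 0.12 (adjusted p = 0.0381). That call was lost in the authors' scaling (-0.34, adjusted p = 0.0667) and in 5 of the 6 fits without 1 DMSO array, all but that without 24-hour replicate 3 (adjusted p = 0.0626 to 0.203). Of 12 measured lysosome and autophagy genes, TFEB, the transcription factor that drives lysosomal genes, was called, with 271, 261 and 274 against 404, 387 and 418 and a change of 0.60 ± 0.07.

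Amino acid stress genes that ATF4 is known to drive were mostly not called. Of 28 measured members 4 fell and 1 rose, with a median of -0.01. SLC7A5, a transporter of large neutral amino acids, had intensities of 3320, 3291 and 3061 at 6 hours and 1623, 1774 and 2020 at 24 hours. The change was -0.86 ± 0.06 (adjusted p = 3.59e-09), and every 24-hour array was below every 6-hour array. SLC7A11, the cystine transporter, went from 500, 510 and 524 to 381, 385 and 413, a change of -0.42 ± 0.07.

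TRIB3, a pseudokinase, fell by 0.33 ± 0.06 from 1366 ± 12 to 1117 ± 75.4, while its second probe set, from 889 to 880, gave -0.05 and was not called. PPP1R15A, a phosphatase subunit that reverses the translation block, fell by 0.51 ± 0.12, and the call was lost without replicate 3 at 6 hours (-0.41, adjusted p = 0.0743) and without replicate 3 at 24 hours (-0.42, adjusted p = 0.0642). ATF4 itself rose by 0.25 ± 0.05 from 4697 ± 41.3 to 5148 ± 195. In the authors' scaling ATF4 was not called (0.13, adjusted p = 0.0871).

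Detoxification genes moved in both directions, with 3 of 18 risen and 5 fallen and a median of -0.10. CYP1A1, a monooxygenase induced through the aryl hydrocarbon receptor, went from 392, 359 and 402 to 275, 249 and 238, a change of -0.68 ± 0.09. AHRR, the repressor of that receptor, went from 1077, 964 and 1064 to 1551, 1455 and 1374, a change of 0.50 ± 0.07. Both genes had non-overlapping groups. GCLM, a subunit of the enzyme that starts glutathione synthesis, fell by 0.75 ± 0.09 from 437 ± 25.3 to 277 ± 22.8.

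HMOX1, the enzyme heme oxygenase 1, fell by 0.49 ± 0.07 from 572 ± 17.4 to 416 ± 21.4. CYP3A5, a monooxygenase of drugs and steroids, rose by 0.67 ± 0.07 from 1455 ± 60.7 to 2351 ± 169, and its second probe set gave 0.75. ABCC3, an organic anion exporter, rose by 0.26 ± 0.06, a call lost without replicate 2 at 6 hours (adjusted p = 0.0933). ALDH1A1, a retinal dehydrogenase, fell by 0.27 ± 0.06, lost without the same array (adjusted p = 0.0603) and in the authors' scaling (-0.19, adjusted p = 0.0859). The fifth member that fell was SLC7A11.

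Interferon-linked genes rose in 3 of 11 measured members and fell in 0, with a median of 0.12. IFIT1, an RNA-binding antiviral protein, had 503, 512 and 478 at 6 hours and 884, 1005 and 962 at 24 hours, a change of 0.93 ± 0.10. PARP14, an ADP-ribosyltransferase, went from 337, 298 and 306 to 499.5, 492 and 504, a change of 0.67 ± 0.09. PSMB9, an immunoproteasome subunit, rose by 0.27 ± 0.08 and lost its call without any 1 of the 6-hour arrays or without replicate 3 at 24 hours (adjusted p = 0.0646 to 0.212).

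Hypoxia and glycolysis genes split, with 2 of 15 risen and 2 fallen and a median of -0.05. MXI1, an antagonist of MYC, went from 1003, 989 and 987 to 1573, 1501 and 1512, a change of 0.62 ± 0.05. P4HA2, a collagen prolyl hydroxylase, fell by 0.40 ± 0.06 from 2277 ± 44.5 to 1713 ± 103. NDRG1, a stress-induced protein, fell by 0.27 ± 0.06, and VEGFA rose as given above.

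Immediate early and feedback genes of MAPK signalling included 2 rises and 0 falls among 9 measured members, with a median of -0.17. SPRY1, an inhibitor of receptor tyrosine kinase signalling, went from 177, 186 and 159 to 410, 379 and 354, a change of 1.14 ± 0.10 (adjusted p = 1.06e-07). ETV4, an ETS transcription factor, rose by 0.37 ± 0.09, a call lost without replicate 1 or 3 at 6 hours or replicate 3 at 24 hours (adjusted p = 0.0674 to 0.0902). Of 10 measured glucocorticoid-responsive genes 2 fell and 0 rose, with a median of -0.15. CRISPLD2, a secreted protein, went from 750, 772 and 775 to 473, 434 and 490, a change of -0.79 ± 0.08, and TSC22D3, the leucine zipper protein GILZ, fell by 0.41 ± 0.07, with dim other probe sets (-0.33 and -0.16) not called.

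Other lists held few calls. BIRC7, an inhibitor of apoptosis, rose by 1.07 ± 0.13 from 181 ± 8.46 to 380 ± 52.6. MCL1, a BCL2 family survival protein, fell by 0.45 ± 0.07 on the probe set kept here, and its others gave -0.39, -0.11 and -0.39, of which the first was called. These were the 2 called of 13 apoptosis genes. BHLHE41, a circadian repressor, rose by 0.54 ± 0.09 as the only call of 5 clock genes, and NOLC1, a nucleolar phosphoprotein, fell by 0.43 ± 0.07 as the only call of 4 ribosome biogenesis genes.

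SCD, a fatty acid desaturase, rose by 0.27 ± 0.04 on its bright probe set (3827 ± 21.7 to 4567 ± 157), while 2 dim ones gave -0.19 and -0.12 and were not called. SQLE, an enzyme of cholesterol synthesis, fell by 0.31 ± 0.07 (with median centring -0.26, adjusted p = 0.0522). These were the only calls of 7 lipid synthesis and 7 cholesterol genes. Among 7 histone genes H2AC6 rose by 0.71 ± 0.10, H1-2 fell by 0.43 ± 0.09 and H2BC5 rose by 0.24 ± 0.07. The probe sets of histone genes can share sequence with close copies, a second H2BC5 probe set gave -0.04, and the H2BC5 call was lost in the authors' scaling (adjusted p = 0.058) and in 5 of the 6 fits without 1 DMSO array, all but that without 6-hour replicate 2 (adjusted p = 0.0655 to 0.128).

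HSPA6, a heat-inducible chaperone, was the only call of 4 heat shock genes. It fell by 0.73 ± 0.21 from 95.8 ± 18.5 to 51.8 ± 2.93 and lost its call in 5 of the 6 fits without 1 DMSO array, all but that without 6-hour replicate 1 (-0.58 to -0.81, adjusted p = 0.0552 to 0.194). Of 106 solute carriers 5 rose and 7 fell, beside 4.67% and 3.92% of all genes, and their median was -0.02. SLC40A1, the iron exporter ferroportin, went from 808, 845 and 772 to 1518, 1493 and 1534, a change of 0.94 ± 0.07. SLC25A45, a mitochondrial carrier, rose by 0.84 ± 0.09, and SLC6A6, the taurine transporter, fell by 0.61 ± 0.14.

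Of 134 zinc finger genes named ZNF, 1 rose and 2 fell. These were ZNF767P with a change of 0.47 ± 0.09, ZNF800 with -0.53 ± 0.10 and ZNF582 with -0.48 ± 0.11. The median over the 134 was 0.02. Of 3 small nucleolar RNA host genes 0 were called. CREBBP, the coactivator CBP, was near background with 21.3, 15.2 and 7.78 at 6 hours and 10.4, 5.42 and 6.6 at 24 hours, and its change of -0.36 ± 0.17 was not called (adjusted p = 0.29). CTNNB1, EP300, AXIN2, MYC, CCND1, MKI67, TXNIP and CCN2 were not among the genes analysed here.

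The same hours were then followed in cells given ICG-001 at 10 µM, whose 6 arrays are separate from the 6 DMSO arrays. With ICG-001, 909 genes changed from 6 to 24 hours (17.3% of those tested), 445 upward (8.48%) and 464 downward (8.84%). Of the 451 genes called in DMSO, 378 moved in the same direction with ICG-001 and 316 were also called in that direction. Those 316 are 70.1% of the genes called in DMSO and 34.8% of those called with ICG-001. A further 30 were called in opposite directions. The share moving the same way was not counted over all genes, nor over the brightest 1313, which held 383 of the 451. Across the 5250 genes the changes had a Pearson correlation of 0.41 and a Spearman correlation of 0.31. Genes are not independent replicates, and quantile normalization over all arrays is shared.

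The test of the difference between the time changes, an interaction term in the same model, called 408 genes (7.77%), of which 202 had a higher and 206 a lower time change with ICG-001. Among the 451 genes called in DMSO, 175 differed. In 79 of them the change was larger with ICG-001 and in 96 it was smaller or opposite, 68 having the opposite sign. This test uses the same DMSO arrays that chose the 451 genes.

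**Figure D4:**
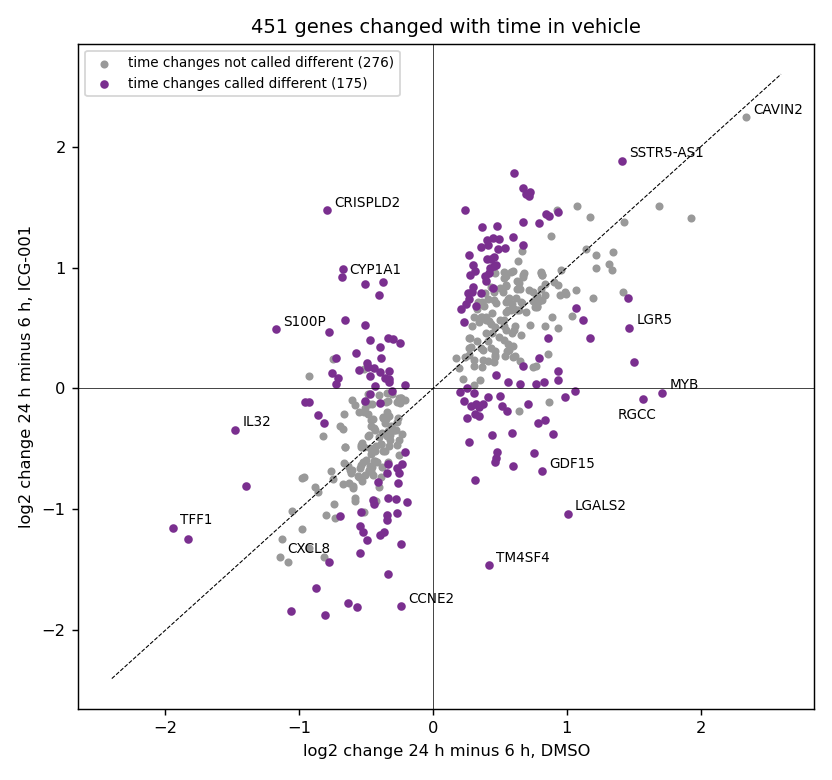
Each point is 1 of the 451 genes called from 6 to 24 hours in DMSO, with its log2 change in DMSO on the x axis and its log2 change with ICG-001 on the y axis; the dashed line marks equal changes. The 175 genes in purple have time changes that differ by the interaction test, among them LGALS2 and TM4SF4, which rose in DMSO and fell with ICG-001, and CRISPLD2 and S100P, which did the reverse.

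Several of the largest changes in vehicle were about as large with the drug. CAVIN2 rose by 2.24 with ICG-001, from 32.5, 19.4 and 26.2 to 204, 182 and 220, so its level was lower at both times while its change differed by -0.10 (adjusted p = 0.887). DEPTOR rose by 1.51, APOBEC1 by 1.38, SPRY1 by 1.15, TJP3 by 0.98 and PDK4 by 0.88. None of these differed by the interaction test, which does not show that they were equal. Among falls, CXCL8 fell by 1.39 and MPRIP by 1.02 with ICG-001.

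Other genes changed less with the drug than in vehicle. MYB stood at 52.7, 40.5 and 45.9 at 6 hours and 53.9, 44.5 and 52.2 at 24 hours with ICG-001, and its time change was lower by 1.75 than in DMSO (adjusted p = 6.93e-05). RGCC stood at 103, 106 and 97.7 and then at 86.5, 100 and 120, a difference of -1.65 (adjusted p = 4.2e-07). For both genes the 24-hour arrays with ICG-001 were far below those with DMSO. KRT23 (difference -0.87), SOSTDC1 (-1.28) and LGR5 (-0.96) likewise had lower time changes with ICG-001. SOSTDC1 was near background with the drug, with means of 12.8 and 20.4, and its difference was -1.11 and not called when only 1 was added to the intensities (adjusted p = 0.263).

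Opposite time changes were measured for LGALS2, which with ICG-001 went from 398, 416 and 365 to 202, 208 and 190, a change of -1.03 against 1.01 in DMSO (difference -2.04, adjusted p = 5.02e-10). TM4SF4 changed by -1.46 against 0.42. CRISPLD2 went from 999.5, 906.5 and 880 to 2966, 2951 and 2784, a change of 1.47 against -0.79 (difference 2.27, adjusted p = 2.43e-10). S100P changed by 0.49 against -1.17 and CYP1A1 by 0.92 against -0.68. In each of these 5 genes the interaction passed the test.

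**Figure D5:**
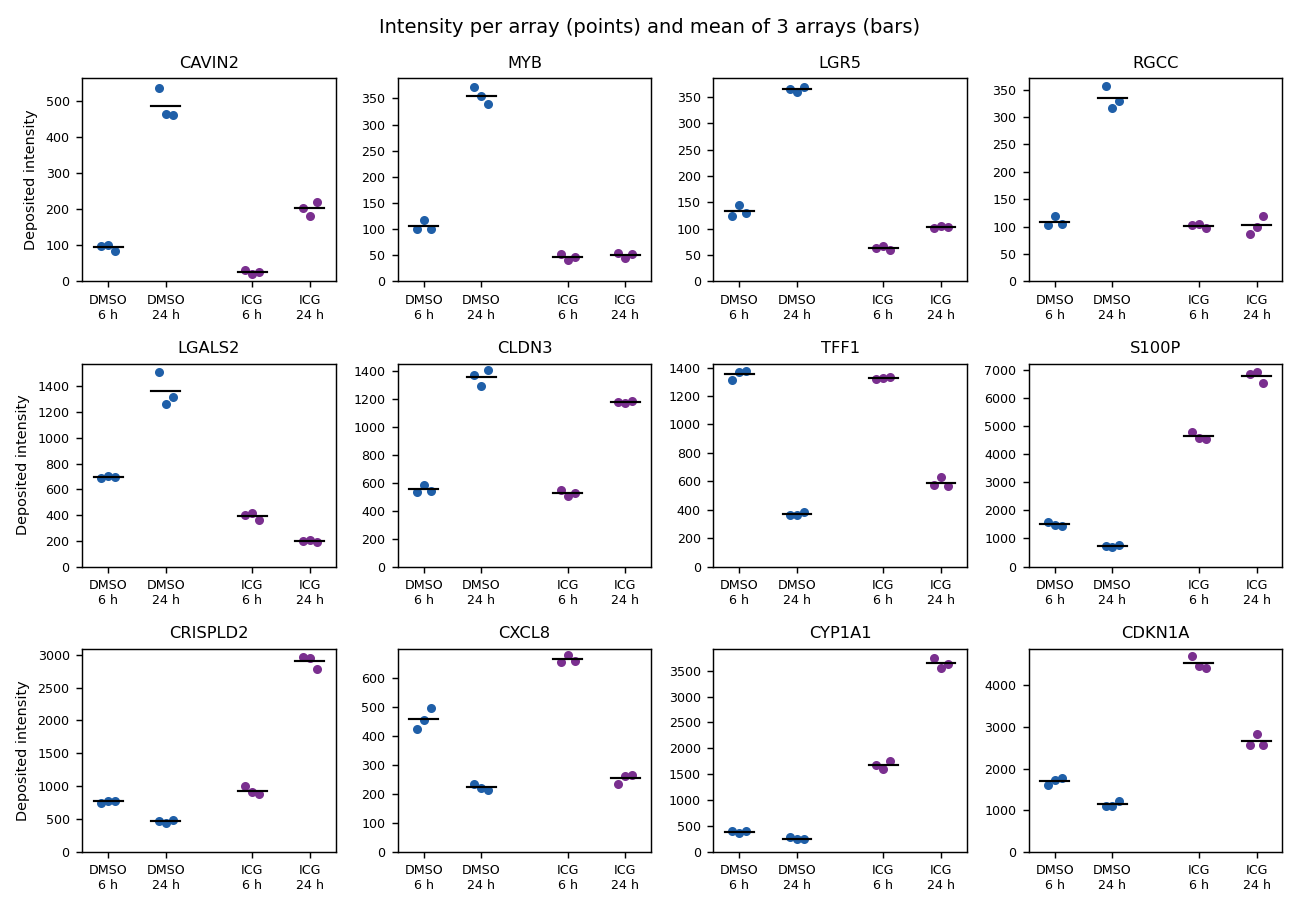
Deposited intensity of 12 genes, 1 point per array, with a bar at the mean of 3 arrays, for DMSO at 6 and 24 hours (blue) and ICG-001 at 6 and 24 hours (purple); every y axis starts at 0. CAVIN2, CLDN3 and CXCL8 moved the same way in both, MYB and RGCC rose in DMSO and changed by -0.04 and -0.09 with ICG-001, neither called, and LGALS2, S100P, CRISPLD2 and CYP1A1 moved in opposite directions.

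The lists were set side by side in the same way. In the DNA replication list with ICG-001, 16 of 19 genes fell from 6 to 24 hours against 5 in DMSO, beside 8.84% and 3.92% fallen over all genes, and for 15 of the 19 the time change was lower by the interaction test. The ATF4 list held 15 of 28 fallen genes with ICG-001 against 4 in DMSO, with 7 lower and 2 higher by that test. Those 4 (SLC7A5, SLC7A11, PPP1R15A and TRIB3) were brighter with ICG-001 than in DMSO at both times. TRIB3, for example, had means of 1366 and 1117 in DMSO and 7566 and 5540 with ICG-001. For these genes a fall with ICG-001 is thus not a lower level than in DMSO. In the matrix list, 7 of 32 time changes were higher and 1 lower with ICG-001. Among Wnt targets 7 of 15 were lower and 1 higher, and among junction genes 3 of 19 were lower and 0 higher. These interaction counts stand beside 3.92% lower and 3.85% higher over all genes.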

How the data were processed

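Deposited values were probe set intensity values on a linear scale from Affymetrix arrays of biotin-labelled total RNA, per the labels. How the authors summarised and scaled them is not given in the sources used here. On the 6 DMSO arrays 1.03% of values were exactly 1. Probe sets were named by the platform annotation and matched to current symbols by gene identifier (6432 of 6442). The 3112 probe sets with several genes or none were counted apart.

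Because array medians on the log2 scale ranged over 0.64 across 16 arrays (0.03 over the 6 DMSO arrays), log2(intensity + 16) was taken after quantile normalization, and the probe set with the highest mean was kept per gene. Of the called genes' other probe sets, 177 in number, 55 were called the same way, 1 the opposite way and 134 had the same sign. A model with 1 mean per group was fitted with limma 3.58.1 (R 4.3.3) over the 16 arrays (intensity trend, 10 residual and 7.80 prior degrees of freedom), and two-sided p-values were adjusted by Benjamini-Hochberg over 5250 genes. On simulated data the fit called 66 of 100 genes changed by log2 1 and 26 of 100 changed by log2 0.5, with 3 false calls. The simulation drew independent normal noise around 1 mean per gene. It held no drug or siRNA effects, scale differences or single outlying arrays, so its false calls do not give the error rate here. Named genes were the 12 largest rises and 12 largest falls among called genes without overlap and above the 25th percentile of level, up to 4 called members per list with the largest change, a few genes fixed by name, and the 5 largest time-by-drug differences each way. Any list member could also be given in the account of its list. The comparison, the 34 gene lists and the rules were chosen with earlier results of these data known. Precision is limited by having 3 arrays a group. Alternatives were other scalings, added numbers, filters, array subsets, left-out arrays and a replicate block. The replicate numbers were checked as pairs: deviations from the group means of same-numbered DMSO arrays correlated at 0.01, 0.01 and -0.06, so the numbers were not taken as pairs.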

Additional observations from a re-analysis of the deposited data

Results flagged for a closer look

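The results here drew attention because the change from 6 to 24 hours differed between ICG-001 and DMSO by the interaction test. Values are the log2 change with ICG-001 minus the log2 change in DMSO, with limma's adjusted p under 0.05 for each.

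Among genes of epithelial and secreted products the difference was lower for LGALS2 (-2.04), TM4SF4 (-1.88), KRT23 (-0.87) and the protease MMP7 (-1.77). It was higher for TFF1 (0.79), S100P (1.66), S100A2 (0.59), PSCA (0.92), CEACAM7 (1.70), the protease inhibitor CSTA (1.74) and CRISPLD2 (2.27). APLP1, an amyloid precursor-like protein, stood at -1.91 and the dehydrogenase DHRS2 at 1.79. MMP7, CEACAM7, CSTA, APLP1 and DHRS2 were not called in DMSO itself. CEACAM7 was near background, with means at 6 and 24 hours of 19 and 3.87 in DMSO and 7 and 34.3 with ICG-001. CSTA was dim in DMSO (19.7 and 11.6) and stood at 30.7 and 120 with ICG-001. With median centring the differences of TFF1 (0.56, adjusted p = 0.0741) and S100A2 (0.32, adjusted p = 0.258) were not called.

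For matrix and contractile genes the difference was higher in TAGLN (0.59), LAMB3 (0.80), THBS1 (0.62), the collagenase MMP1 (1.71) and P4HA2 (0.75). The TAGLN difference lost its call in 10 of 12 fits that left out 1 array (adjusted p = 0.052 to 0.147). It was also lost in the authors' scaling (0.58, adjusted p = 0.0534), with median centring (0.46, adjusted p = 0.135), with 1 added before log2 (adjusted p = 0.0798) and without an intensity trend (adjusted p = 0.0787).

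Among regulators of growth and signalling the difference was lower for MYB (-1.75), RGCC (-1.65), CCNE2 (-1.56), GDF15 (-1.50), SOSTDC1 (-1.28), CCNG2 (-1.28), LGR5 (-0.96), SOX4 (-0.55), MCL1 (-0.48), TSC22D3 (-0.36) and VEGFA (-0.34). It was also lower for TBC1D31 (-0.77), CALHM3 (-0.71), the helicase subunits GINS3 (-0.76) and GINS4 (-0.71), ORC1 (-0.52) and BIRC5 (-0.63). A lower difference is not a lower level. Mean intensities of GDF15 at 6 and 24 hours were 77.7 and 148 in DMSO and 1598 and 1003 with ICG-001. CCNG2, MCL1, VEGFA and TSC22D3 (491 and 379 against 3529 and 2141) were also brighter with ICG-001 at both times. MYB, RGCC, CCNE2, SOSTDC1, LGR5 and SOX4 had lower means with ICG-001 at both times. The TSC22D3 difference lost its call without 6-hour ICG-001 replicate 1 (adjusted p = 0.0713). With only the 12 arrays of the drug experiment the MCL1 difference was -0.23 and not called (adjusted p = 0.208), another probe set being the brightest there. With 1 added before log2 that of SOSTDC1 was -1.11 and not called (adjusted p = 0.263). Without an intensity trend SOX4 (adjusted p = 0.063), TSC22D3 (0.158) and VEGFA (0.156) were not called.

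Among inflammatory, stress and transport genes, CXCL3 (-0.66) and CYP3A5 (-0.49) were lower, and IL32 (1.14), CYP1A1 (1.60), PSMB9 (0.83), HSPA6 (0.98), SLC7A5 (0.64) and SLC40A1 (0.52) were higher. The histone genes H2AC6 (0.88), H2BC5 (1.24) and H1-2 (0.45) and the noncoding SSTR5-AS1 (0.47) were higher. HSPA6 lost its call in each of 12 fits that left out 1 array, SSTR5-AS1 in 9 and H1-2 in 8. Without an intensity trend CYP3A5 (adjusted p = 0.0622), HSPA6 (0.0822), H1-2 (0.142) and SSTR5-AS1 (0.142) were not called. The call was also lost for CYP3A5 in the authors' scaling (-0.31, adjusted p = 0.0599), for H1-2 with median centring (0.38, adjusted p = 0.0794) and for HSPA6 with 1 added before log2 (1.23, adjusted p = 0.0692).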

How the results depend on the processing

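Under the alternatives the count of 451 genes changed in DMSO ran from 335 without an intensity trend to 540 over all 6442 probe sets. It was 432 in the authors' scaling (400 of them shared), 396 with median centring and 387 with the 6 DMSO arrays alone (362 shared). Leaving out 1 DMSO array gave 369 to 410, with 205 to 226 risen and 157 to 194 fallen. Only the count of fallen genes without an intensity trend moved by over 1.5 times, to 137. The share of calls that rose was 52.7% to 61.3%. Single genes were followed in a wider set of 147 than the 100 named genes. It also held every called list member and genes chosen after their values were seen. Of these 147, 135 were called in the main fit. Of the 135, 98 were called in every setting and 37 lost the call in at least 1, 32 of them without the trend. One called change turned sign. With only the 12 arrays of the drug experiment another MALAT1 probe set was the brightest and gave -0.29, and MCL1 gave -0.11 for the same reason. The 408 differences between time changes ran from 292 to 484, and from 347 to 408 with 1 array left out. With the replicate number as a block, 464 genes changed in DMSO (249 risen, 215 fallen) and 428 differences were called. In that setting 4 of the 147 genes lost the call. With the 6 DMSO arrays alone 12 of the 147 lost it, whereas GRAPL, TFF2, TNFRSF19, FST and HSPA6 kept it. The 1313 dimmest genes held 2 of the calls and the next 1312 held 7, and the reason for this was not tested.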

Other observations

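The genes below are outside the lists and were chosen one by one after their values were seen, so they are single genes and not a tested group. ACTR3, a subunit of the actin-nucleating Arp2/3 complex, fell by 0.78 ± 0.09 (SE) from 340 ± 26.2 (SD, n = 3) to 206 ± 5.24. PHLDB2, a microtubule-anchoring protein at the cell cortex, fell by 0.74 ± 0.05 from 1727 ± 23.9 to 1096 ± 18.1. The dynein chains DYNC1H1 (-0.82 ± 0.13) and DYNC1I1 (-0.80 ± 0.16), the microtubule plus-end protein CLIP1 (-0.62 ± 0.13) and LUZP1 (-0.58 ± 0.12) fell too. The growth factor PDGFA fell by 0.81 ± 0.07 and the receptor tyrosine kinase KIT by 0.69 ± 0.15. MET, the hepatocyte growth factor receptor, had deposited intensities that overlapped between the times, unlike its normalized values, and fell by 0.56 ± 0.13, a call lost without replicate 1 or 2 at 6 hours or replicate 3 at 24 hours (adjusted p = 0.0548 to 0.0674).

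Rises outside the lists included PNRC1, a nuclear receptor coactivator, by 1.06 ± 0.06 from 363 ± 17.9 to 762 ± 69.8. The YPEL family genes YPEL3 (0.79 ± 0.10) and YPEL2 (0.79 ± 0.12), the muscle atrophy ubiquitin ligase FBXO32 (0.81 ± 0.18) and SELENOP (0.80 ± 0.09), a selenium carrier, also rose. Other single genes that rose were ACSM3 (1.12 ± 0.11), HSD17B2 (0.95 ± 0.09), CYP3A4 (0.86 ± 0.20), DHRS3 (0.84 ± 0.06), FABP4 (0.83 ± 0.12) and ACOX2 (0.78 ± 0.09). The CYP3A4 change was not called with 1 added before log2 (0.90, adjusted p = 0.128). CYP3A4 is a close copy of CYP3A5, and its probes may share signal with it. Of long noncoding RNA genes, KLRK1-AS1 rose by 1.17 ± 0.07 and LINC01133 fell by 0.77 ± 0.10.

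A few large mean changes rested on 1 array and were not called. ASF1B, a histone chaperone, stood at 1509 to 1684 at 6 hours and at 1602, 1619 and 12581 at 24 hours, and the last value was the highest of its array. SOCS6, an adaptor of cytokine signalling, stood at 8503 on 6-hour replicate 2 and between 771 and 864 on the other DMSO arrays. ITGA1, an integrin chain, stood at 370 on 6-hour replicate 1 and between 3.97 and 22 on the others.

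Among probe sets outside the main comparison, in a fit over all 9554, 29 of the 252 with several genes (11.5%) and 60 of the 2860 with none (2.1%) were called, against 7.79% of those with 1 gene.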
